A study of Mus musculus with 4 samples.

Results

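The genes described here are 35 type I interferon-stimulated genes, chosen by name as well-known members of the programme that type I interferon switches on. They and the gene lists used below were chosen with earlier results of these data known. All 35 were found among the 48526 gene identifiers of the table, and all 35 were among the 13528 genes with enough signal to be tested. They were measured in lamina propria mononuclear cells, which are immune cells and their companions isolated from the connective tissue beneath the gut lining. In the condition called DKO, mice had received CD4 T cells that lack both Hobit and Blimp-1, repressors of transcription that govern tissue residency of lymphocytes, and the colitis is labelled as mild (n = 2 samples). In the control condition, called WT, the transferred CD4 T cells were wild type and the colitis is labelled as pronounced (n = 2 samples). Only the transferred cells carry the deletions, while the RNA comes from all cells of the preparation. The sources used here do not state strain, sex or age of the recipient mice, or which part of each gene is deleted. The comparison asks how the interferon programme of the inflamed mucosa differs when the transferred CD4 cells lack the residency regulators.

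Type I interferons signal through the receptor chains IFNAR1 and IFNAR2 and the kinases JAK1 and TYK2. The signal leads to the factor ISGF3, which contains STAT2 and IRF9 and binds interferon-stimulated response elements in the promoters of the target genes. The products sense foreign nucleic acid, block translation and viral replication, or feed back on the signal. Interferon gamma, the main interferon of T helper 1 cells, and type III interferon induce many of the same genes, so a level of these transcripts does not name the interferon behind it.

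Values are rlog, a regularized log2 expression that pulls each gene towards its own mean. Differences are DKO minus WT on this log2 scale, with the SE of limma's moderated fit and p-values adjusted over all 13528 genes, and a change is called at an adjusted p under 0.05. Read depth is unknown. All 4 samples had nearly the same median over the tested genes, from 8.33 to 8.35. Zfp683, which encodes Hobit, had rlog values of 3.29 and 3.38 in the DKO samples and 3.53 and 3.81 in the WT samples, under the minimum for testing, and Prdm1, which encodes Blimp-1, had 11.37 and 11.43 in DKO and 11.53 and 11.43 in WT. Neither level checks the labels, since both genes are also transcribed in cells that were not transferred. T cell and macrophage markers were present (Cd3e 10.59 to 11.04, C1qa 11.64 to 12.31 over the 4 samples). The B cell gene Pax5 was listed at 0 in every sample, but only 2 of 9 B and plasma cell markers were, and 3 were tested.

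The interferon-stimulated genes did not move as a block. In DKO, 6 of the 35 rose (Ifit3, Ifi44, Slfn5, Mx2, Usp18 and Mx1), 2 fell (Oas3 and Isg15) and 27 did not pass. With no filter on low values 0 members passed in limma (7 were higher and 3 lower at an unadjusted p under 0.05). Leaving out 1 sample gave 10 rises and 1 fall without DKO replicate 1, 6 and 4 without DKO replicate 2, 3 and 0 without WT replicate 1 (2 lower at an unadjusted p under 0.05) and 2 and 1 without WT replicate 2. The 6 rises are 17.1% of the members, against 9.92% of all genes tested that rose, and the 2 falls are 5.71%, against 4.85%. The median difference of the 35 was 0.081, with a range from -0.43 to 0.85, and the median over all genes tested was -0.022. The mean rlog of the members was 9.16 and 9.22 in the DKO samples and 9.10 and 9.06 in the WT samples. Of the 35, 23 were higher in DKO (65.7%, against 44.7% of all genes tested). For 18 of 35 the 2 DKO values and the 2 WT values did not overlap (51.4%), against 55.3% of all genes tested, so separation of the groups was no more frequent among the members. No test of the list was made. In bulk samples a smaller number of cells of a type and less RNA per cell cannot be told apart.

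**Figure D1:**
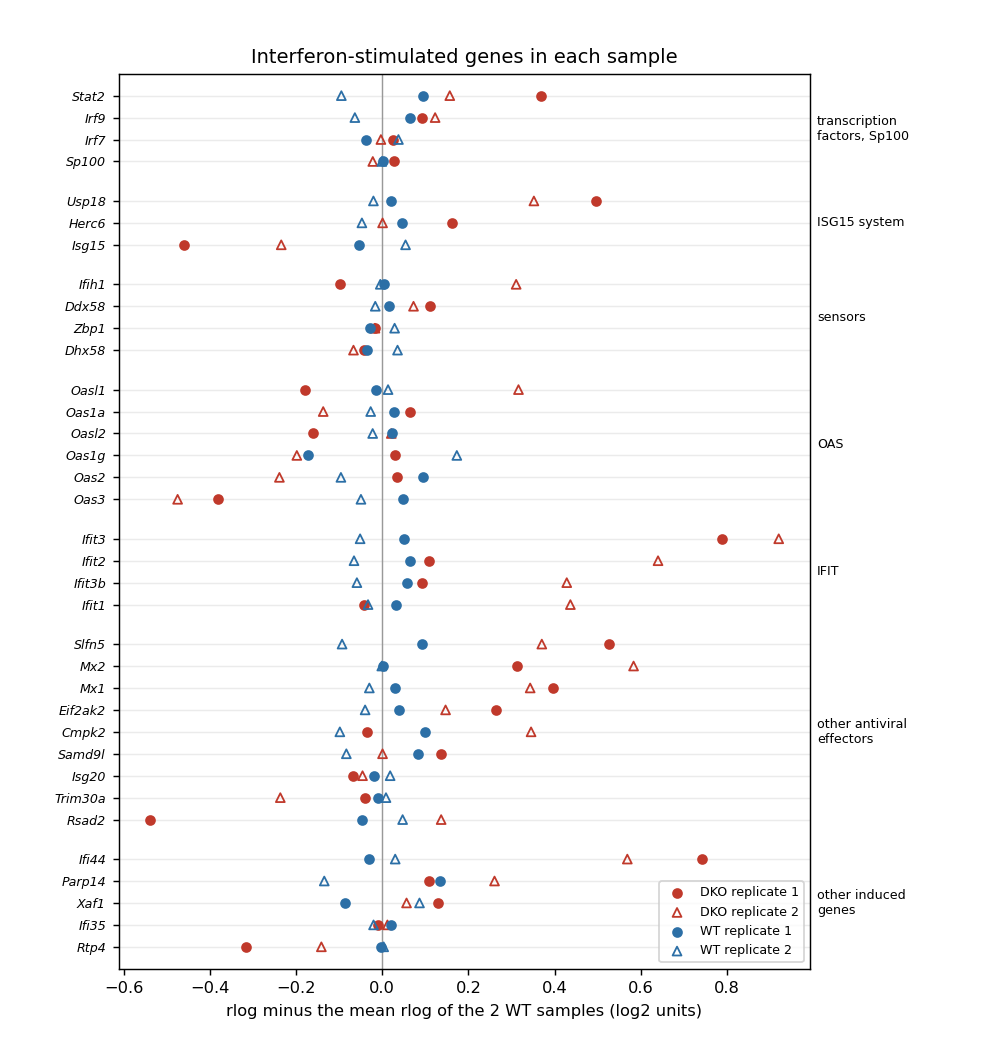
Each row is 1 interferon-stimulated gene, and each point is 1 sample, plotted as its rlog minus the mean rlog of the 2 WT samples (log2 units), with DKO in red, WT in blue, circles for replicate 1 and triangles for replicate 2. Ifit3, Ifi44, Slfn5, Mx1, Mx2 and Usp18 have both DKO samples to the right of both WT samples, Oas3 and Isg15 have both to the left, and Irf7, Sp100 and Ifi35 lie close to 0 in all 4 samples.

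The factors that carry the signal were not called. Stat2, the interferon-specific subunit of ISGF3, had rlog values of 10.23 and 10.02 in DKO and 9.96 and 9.77 in WT. Both DKO values lay above both WT values, but the gap between samples of 1 group was nearly as wide as that between the groups (difference 0.26, SE 0.098, adjusted p = 0.106 in limma). Irf9, the DNA-binding subunit of ISGF3, stood at 10.20 and 10.22 in DKO and at 10.16 and 10.04 in WT (difference 0.11, SE 0.0812, adjusted p = 0.45 in limma). Irf7, the induced factor that amplifies interferon transcription, had 10.56 and 10.53 in DKO and 10.50 and 10.57 in WT. Its difference was 0.011 with a 95% interval from -0.16 to 0.18, so a change beyond that size in either direction lay outside the interval. Irf7 overlaps Phrf1 on the opposite strand and Irf9 overlaps Rnf31 on the same strand, and the sources used here do not state how reads in these overlaps were counted. Sp100, a component of nuclear bodies, differed by 0.0033 (95% interval -0.17 to 0.17). In this group of 4 genes 0 passed, and 1 (Stat2) rose at an unadjusted p under 0.05.

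The ISG15 system split. Isg15 encodes a ubiquitin-like modifier that is joined to proteins and is also secreted, and Usp18 encodes the protease that removes it and also blocks the interferon receptor. Isg15 (chromosome 4, 156199424 to 156200818, GRCm38) stood at rlog values of 11.94 and 12.16 in DKO and 12.34 and 12.45 in WT. Both DKO values were lower, and the gene fell (difference -0.35, SE 0.0977, adjusted p = 0.0352 in limma), a level 1.27 times as high in WT. This call is fragile. It was lost without the variance trend (adjusted p = 0.0637), with quantile normalization (difference -0.24, adjusted p = 0.111) and without WT replicate 1, WT replicate 2 or DKO replicate 1 (adjusted p = 0.0692, 0.258 and 0.115 in limma). Usp18 (chromosome 6, 121245906 to 121270917) moved the other way, with 7.97 and 7.82 in DKO and 7.49 and 7.45 in WT. It rose by 0.42 (SE 0.103, adjusted p = 0.0168 in limma), 1.34-fold, with every DKO value above every WT value, and it did not pass without WT replicate 1, WT replicate 2 or DKO replicate 1 (adjusted p = 0.0571, 0.0989 and 0.0619). Herc6, the mouse ligase that attaches ISG15, differed by 0.081 (SE 0.102, adjusted p = 0.681 in limma), with overlapping groups. By length, Isg15 had the highest level of all 35 members (12.63, as mean rlog minus log2 of the exonic length in kilobases), ahead of Rsad2 at 9.53 and Oasl1 at 9.37, while Usp18 stood at 6.20 and Ifi44 was lowest at 3.72.

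None of the sensors of nucleic acid passed. Ddx58, which encodes the RNA sensor RIG-I, had the smallest p of the 4, with rlog values of 9.39 and 9.35 in DKO and 9.30 and 9.27 in WT (difference 0.091, SE 0.0809, adjusted p = 0.531 in limma). Its groups did not overlap, but the difference was small. Ifih1, which encodes the RNA sensor MDA5, differed by 0.11, Dhx58, which encodes their regulator LGP2, by -0.055, and Zbp1, a sensor that triggers necroptosis, by -0.017. Of these 4 genes 0 passed in limma, and 0 had an unadjusted p under 0.05.

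Of the 35 members, 6 belong to the family of oligoadenylate synthetases and synthetase-like genes, and 1 of these fell (16.7%, against 4.85% of all genes tested). Oas1b and Oas1c, family genes outside the 35, did not pass (differences 0.016 and -0.066, adjusted p = 0.955 and 0.788 in limma). The synthetases make the messenger that activates RNase L. Oas3 (chromosome 5, 120753098 to 120777661), the longest of the family, stood at rlog values of 8.46 and 8.36 in DKO and 8.89 and 8.79 in WT. Both DKO values lay below both WT values by far more than the gap within either group (difference -0.43, SE 0.0915, adjusted p = 0.00832 in limma), a level 1.34 times as high in WT. Without WT replicate 1 it was -0.38 and did not pass (adjusted p = 0.0773). The neighbouring genes Oas1a, Oas1g and Oas2 differed by -0.037, -0.084 and -0.10, and the synthetase-like Oasl1 and Oasl2 by 0.068 and -0.07, all with overlapping groups. Oas1a and Oas1g are near copies, and 57.6% of the 50-base windows of the longest Oas1a transcript also occur in Oas1g, so their separate values are uncertain.

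**Figure D2:**
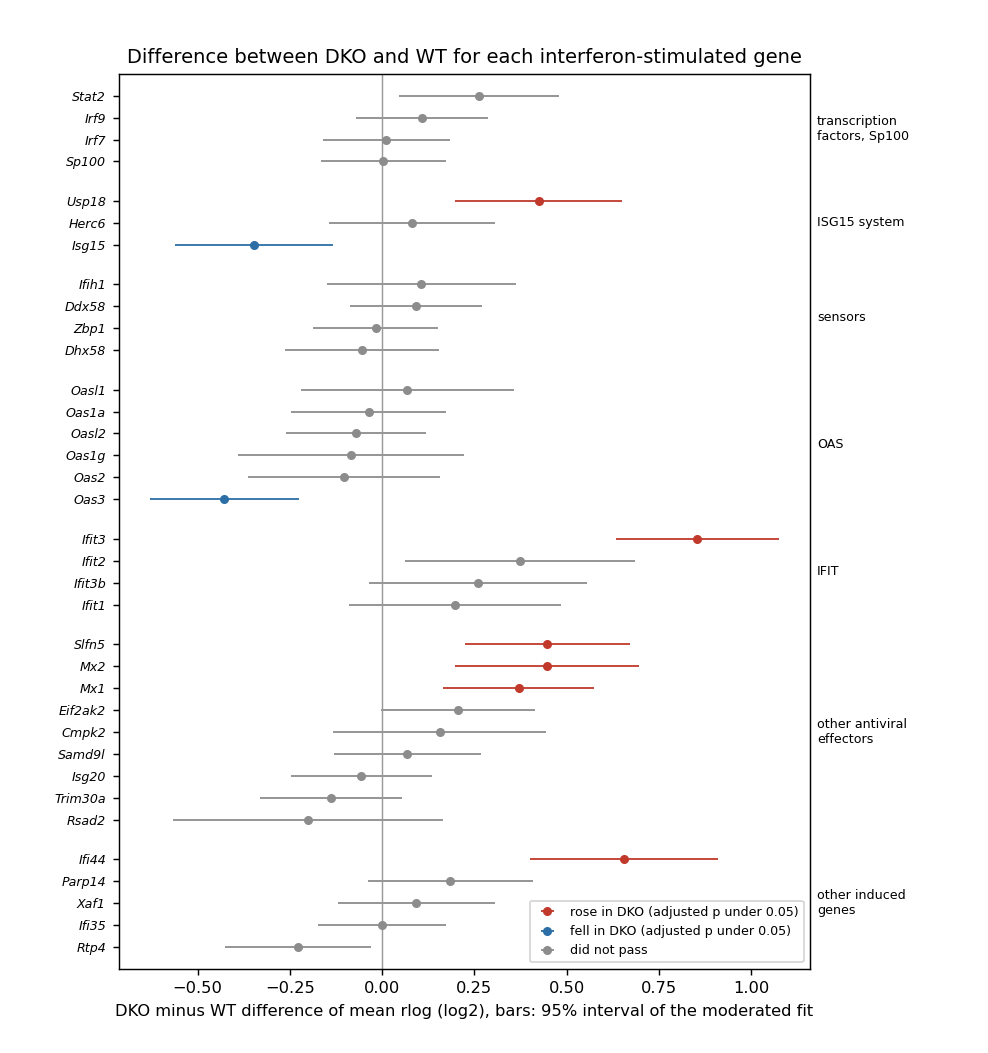
Points give the DKO minus WT difference of mean rlog for each gene (log2 scale), bars its 95% interval in the moderated limma fit, and rows are grouped by role. The 6 genes that rose are red, from Mx1 at 0.37 to Ifit3 at 0.85, the 2 that fell are blue, Isg15 at -0.35 and Oas3 at -0.43, and the 27 that did not pass are grey.

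The IFIT family gave the largest rise of the 35. IFIT proteins bind viral RNA and block its translation. The 4 IFIT genes among the 35 lie in 1 cluster on chromosome 19, and all 4 were higher on average in DKO, but only Ifit3 passed. Ifit3 (chromosome 19, 34583531 to 34588731) stood at rlog values of 8.39 and 8.53 in DKO and 7.66 and 7.56 in WT. The groups stood far apart relative to their own spread, with a rise of 0.85 (SE 0.10, adjusted p = 0.000182 in limma), 1.81-fold, that passed without each of the 4 samples in turn. Ifit2 had 9.36 and 9.89 in DKO and 9.32 and 9.19 in WT (difference 0.37, SE 0.142, adjusted p = 0.112 in limma). Here DKO replicate 1 was close to WT and DKO replicate 2 was high. Ifit1 showed the same arrangement, with 9.38 and 9.85 in DKO and 9.45 and 9.39 in WT, so that its groups overlapped (difference 0.20, adjusted p = 0.38 in limma). Ifit3b stood at 5.60 and 5.94 in DKO and 5.57 and 5.45 in WT, so that its groups were just apart (difference 0.26, adjusted p = 0.251 in limma).

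Ifit3 and Ifit3b are near copies whose values cannot be taken as independent. Of the 50-base windows of the longest Ifit3 transcript, 51.2% also occur in Ifit3b transcripts, and the sources used here do not state how the authors' counting treated reads that match both genes. The gap between the copies, Ifit3 minus Ifit3b in rlog, was 2.80 and 2.59 in the DKO samples and 2.09 and 2.11 in the WT samples. It was wider in both DKO samples. This gap was chosen after its values were seen and was not tested. Ifit3b had a lower mean rlog than Ifit3 (5.64 against 8.03), and rlog understates the folds of genes with few reads. The part of this in the wider gap was not tested either.

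The promoters of Ifit3, Ifit3b and Ifit1 are shown because each carries a pair of core motifs of the element that ISGF3 binds, and because those of Ifit3 and Ifit3b share most of their sequence while the transcripts differed in size of change. Sequences are from RefSeq (GRCm38.p6), given 5′ to 3′ on the strand of the gene, with the core of the interferon-stimulated response element in capitals. The core searched for is GAAA, any 2 bases and GAAA again, or on the other strand TTTC, any 2 bases and TTTC. The run of Ifit3 is chr19:34583353-34583452 (plus strand), that of Ifit3b is chr19:34607749-34607848 (plus strand) and that of Ifit1 is chr19:34640765-34640864 (plus strand).
Ifit3: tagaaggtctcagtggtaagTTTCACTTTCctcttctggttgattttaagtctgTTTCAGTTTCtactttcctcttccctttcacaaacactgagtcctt
Ifit3b: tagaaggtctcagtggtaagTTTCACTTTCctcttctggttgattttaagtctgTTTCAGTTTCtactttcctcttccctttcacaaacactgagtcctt
Ifit1: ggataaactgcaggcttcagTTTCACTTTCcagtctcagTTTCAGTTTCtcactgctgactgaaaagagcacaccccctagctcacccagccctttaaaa
The 100 bases printed for Ifit3 and Ifit3b are identical, and lie within an identical stretch of 169 bases shared by their promoter windows. Each of the 3 genes holds a pair of core motifs, first TTTCACTTTC and then TTTCAGTTTC, beginning 156 and 122 bases upstream of the annotated start in Ifit3, 188 and 154 bases upstream in Ifit3b, and 104 and 85 bases upstream in Ifit1. The 2 windows of Ifit2, the remaining IFIT gene among the members described here, hold no core. The transcripts of Ifit3, Ifit3b and Ifit1 differed from WT by 0.85, 0.26 and 0.20, with the limits on Ifit3 and Ifit3b given above. Ifit3b also had the lowest mean rlog of the members (5.64, against 8.03 for Ifit3 and 9.52 for Ifit1). Because rlog understates the folds of genes with few reads, these sizes of change are not directly comparable. The part of rlog in their contrast was not tested.

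Of the other antiviral effectors, 3 of 9 rose (33.3%, against 9.92% of all genes tested) and 0 fell in limma (4.85% of all genes tested fell, and 0 of the 9 were lower at an unadjusted p under 0.05). Slfn5, a Schlafen family protein (chromosome 11, 82951349 to 82964840), stood at rlog values of 8.93 and 8.77 in DKO and 8.49 and 8.31 in WT. It rose by 0.45 (SE 0.101, adjusted p = 0.0113 in limma), 1.36-fold, and did not pass without WT replicate 2 (0.35, adjusted p = 0.112). The Mx genes encode dynamin-like GTPases that trap viral nucleoproteins, and lie next to each other on chromosome 16. Mx1 (97447035 to 97462907) had 8.40 and 8.35 in DKO and 8.04 and 7.98 in WT, and rose by 0.37 (SE 0.0932, adjusted p = 0.0206 in limma). Mx2 (97535308 to 97560900) had 7.81 and 8.08 in DKO and 7.50 and 7.50 in WT, and rose by 0.45 (SE 0.113, adjusted p = 0.0209 in limma). In both genes all DKO values lay above all WT values, with folds of 1.29 and 1.36, and neither passed without WT replicate 1 (adjusted p = 0.0681 for Mx1 and 0.065 for Mx2) or WT replicate 2 (0.152 and 0.0722). Mx2 was also lost without DKO replicate 2 (0.31, adjusted p = 0.0808). Eif2ak2, the RNA-dependent kinase PKR, differed by 0.21, Cmpk2, a mitochondrial nucleotide kinase, by 0.16, and Samd9l, a restriction factor, by 0.068. Isg20, an exonuclease, differed by -0.057, Trim30a, a tripartite motif protein, by -0.14 and Rsad2, which encodes viperin, by -0.20. Their adjusted p ran from 0.195 to 0.746 in limma.

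In the remaining group Ifi44 rose. Ifi44, an interferon-induced cytoplasmic protein (chromosome 3, 151730922 to 151749960), stood at rlog values of 6.75 and 6.58 in DKO and 5.98 and 6.04 in WT. The rise of 0.66 (SE 0.115, adjusted p = 0.00246 in limma), 1.58-fold, was the largest after Ifit3 and also passed without each sample in turn. Rlog understates the folds of genes with few reads, and the values of Ifi44 are among the lowest of the members. Parp14, an ADP-ribosyltransferase, differed by 0.19, Xaf1, a pro-apoptotic protein, by 0.093, Ifi35, a partner of Nmi, by 0.00064 and Rtp4, a chaperone of receptors, by -0.23 (adjusted p = 0.283, 0.604, 0.998 and 0.126 in limma). Rtp4 overlaps Masp1 on the opposite strand.

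**Figure D3:**
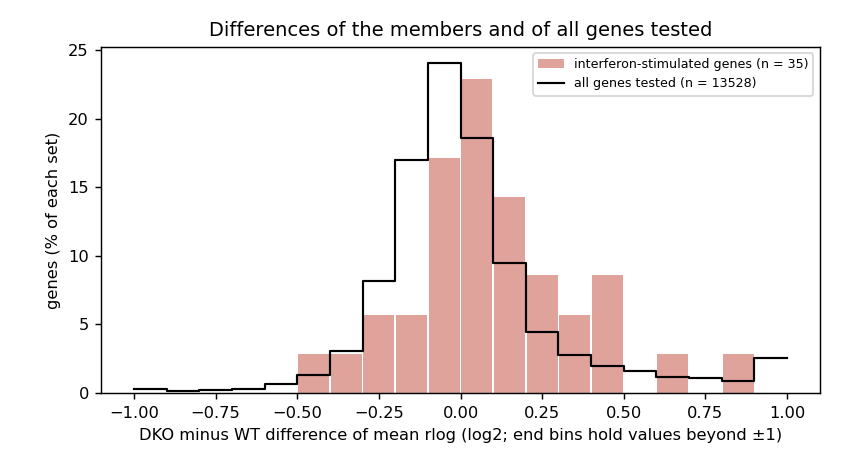
Bars give the percent of the 35 interferon-stimulated genes, and the line the percent of all 13528 genes tested, in each bin of the DKO minus WT difference (log2 scale, bins 0.1 wide). The members run from -0.43 to 0.85 around a median of 0.081, and all genes have a median of -0.022.

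Promoter windows of the other members were also searched. A window runs from 250 bases before to 50 bases after an annotated start, and 27 of the 35 members matched an entry. Mx1, Mx2 and Usp18 are among the 8 that did not. The run of Slfn5 is chr11:82951927-82952026 (plus strand), that of Isg15 is chr4:156200817-156200916 (minus strand) and that of Oas3 is chr5:120777655-120777754 (minus strand). Slfn5 is shown as a gene that rose, and Isg15 and Oas3 as the 2 that fell, with the same core in capitals.
Slfn5: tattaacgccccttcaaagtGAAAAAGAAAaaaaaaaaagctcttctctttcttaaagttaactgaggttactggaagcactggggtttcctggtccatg
Isg15: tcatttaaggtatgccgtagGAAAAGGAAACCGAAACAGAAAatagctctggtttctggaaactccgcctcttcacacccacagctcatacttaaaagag
Oas3: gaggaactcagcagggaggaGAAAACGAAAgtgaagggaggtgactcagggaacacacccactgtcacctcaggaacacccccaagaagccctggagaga
Isg15 holds 3 overlapping core matches, which begin 78, 72 and 66 bases upstream of the start, Oas3 holds 1 at 75 bases and Slfn5 1 at 155 bases. The RefSeq start used for Slfn5 lies inside the span given above for the gene, which is from GENCODE, so this match is downstream of the first base of that span. The core was present on either strand in 14 of 27 members (51.9%), and in 3.99% of the 27025 genes with a promoter entry. It was present in 2 of 3 matched genes that rose (Ifit3 and Slfn5, but not Ifi44), 2 of 2 that fell and 10 of 22 that did not pass. So genes that rose, fell and did not pass all include carriers of the core. The gamma-activated motif TTCNNNGAA, its own reverse complement, was found in 5 of 27 members, none of them called, and in 9.55% of all genes. A match describes letters in these windows and does not show binding.

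**Figure D4:**
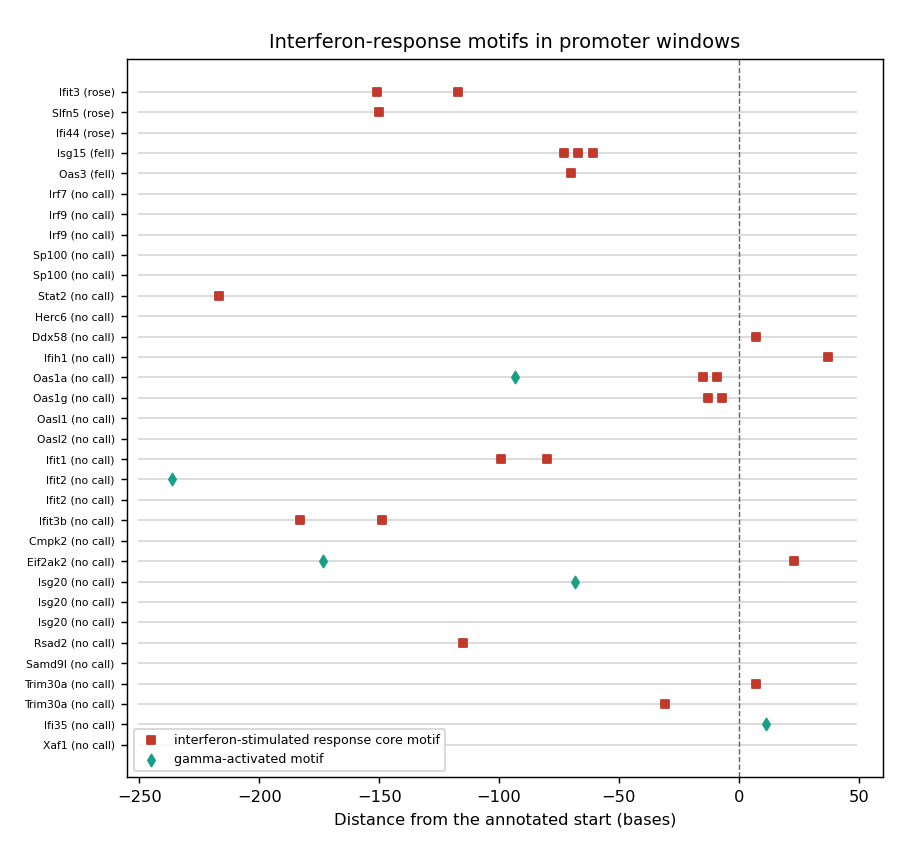
Each line is 1 promoter window of an interferon-stimulated gene, from 250 bases before to 50 after the annotated start (dashed), with squares at the middle of core motifs of the interferon-stimulated response element, diamonds at gamma-activated motifs, and the call in DKO beside the name. Some genes have more than 1 annotated start and so more than 1 line, and core motifs stand in genes that rose, fell and did not pass.

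A second source of variation lay between the 2 DKO samples. In 8 of the 35 members (22.9%) DKO replicate 2 exceeded DKO replicate 1 by more than 0.25, against 6.30% of all genes tested, while the opposite gap occurred in 1 member, Oas2 (2.86%, against 8.29% of all genes tested). These 8 were Rsad2, Ifit2, Oasl1, Ifit1, Ifih1, Cmpk2, Ifit3b and Mx2, a set chosen by its values and not tested. Rsad2 had rlog values of 11.21 and 11.89 in DKO and 11.70 and 11.80 in WT, so the DKO samples lay on both sides of WT. Oasl1 did likewise, with 10.54 and 11.03 in DKO and 10.70 and 10.73 in WT, and so did Ifih1, with 10.15 and 10.56 in DKO and 10.25 and 10.24 in WT. Cmpk2, the neighbour of Rsad2 on chromosome 12, had 7.88 and 8.26 in DKO and 8.01 and 7.81 in WT. Over all 35 members neither DKO sample was generally higher, with 18 members higher in DKO replicate 1, Stat2 and Usp18 among them, and 17 higher in DKO replicate 2. In the WT samples 2 of 35 members lay more than 0.25 apart, Oas1g and Parp14 (5.71%, against 8.48% of all genes tested). For 17 of the 35 members (48.6%) the gap within DKO exceeded the difference between the groups, against 45.1% of all genes tested.

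Several calls changed when 1 DKO sample was left out. Without DKO replicate 1, Ifit2 (0.64), Ifit1 (0.44), Ifit3b (0.43), Oasl1 (0.32) and Ifih1 (0.31) passed as rises (adjusted p = 1.93e-05, 0.00152, 0.0389, 0.0141 and 0.0174 in limma), and 10 members rose in all. Without DKO replicate 2, Stat2 passed as a rise (0.37, adjusted p = 0.00645), and Rsad2 (-0.54, adjusted p = 5.77e-05) and Rtp4 (-0.32, adjusted p = 0.0239) passed as falls. In such fits the WT samples alone give each gene's own spread, which was narrow for most of these genes. Moderation combines that spread with a prior taken over all genes. DKO replicate 2 also had the higher Cd8a level, a gene of the CD8 coreceptor (8.23 and 9.64 in DKO, 8.15 and 8.92 in WT), and a lower mean rlog of 6 mitochondrially encoded genes (16.35 and 15.69 in DKO, 15.65 and 16.09 in WT). Their part in the gap was not tested.

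**Figure D5:**
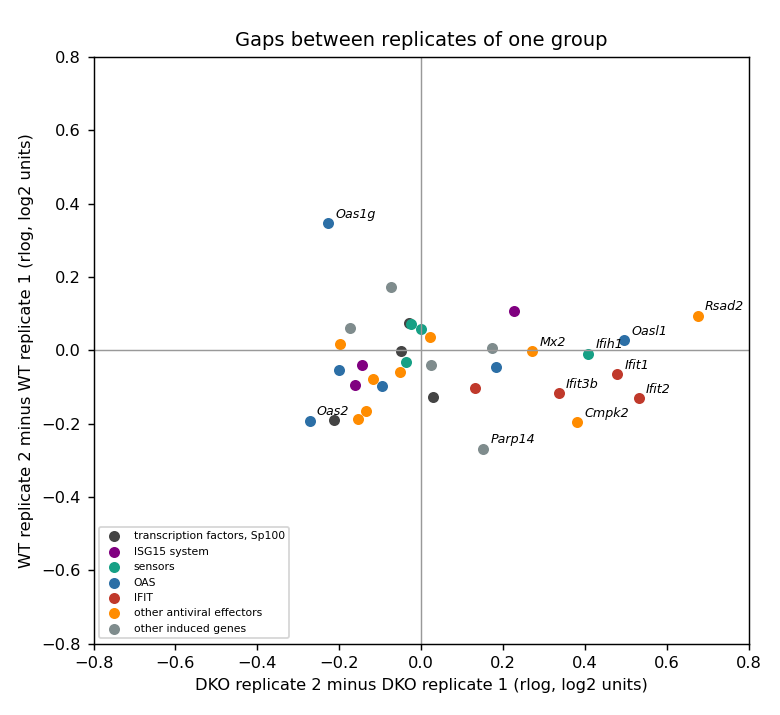
Each point is 1 interferon-stimulated gene, with the gap between the DKO replicates on the horizontal axis and the gap between the WT replicates on the vertical axis (replicate 2 minus replicate 1, rlog), coloured by role. Genes with a gap above 0.25 on either axis are named, and Rsad2, Ifit2, Oasl1, Ifit1, Ifih1, Cmpk2, Ifit3b and Mx2 lie to the right while their WT gaps stay under 0.25.

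Most other genes of the interferon pathway did not pass. Over all genes tested 9.92% rose and 4.85% fell. Of 19 type I and type III interferon genes 10 were listed at 0 in all 4 samples and only Ifnb1 was tested, with rlog values of 6.64 and 6.83 in DKO and 6.40 and 6.82 in WT, overlapping (difference 0.12, adjusted p = 0.661 in limma). Of 10 receptor chains and kinases 1 fell (10%), the interferon gamma receptor chain Ifngr2 (-0.29, adjusted p = 0.0361 in limma). Ifnar2 (-0.24, adjusted p = 0.0978) and Ifnar1 (-0.13, adjusted p = 0.352) did not pass in limma. Of 17 genes of interferon induction 2 fell (11.8%, against 4.85% of all genes tested). They were Unc93b1, which escorts nucleic acid receptors to endosomes (-0.40, adjusted p = 0.0124 in limma), and the factor Irf5 (-0.32, adjusted p = 0.0226). Of 11 negative regulators 0 passed in limma (4 were lower and 1 higher at an unadjusted p under 0.05), and Ptpn6 had the smallest p (-0.27, adjusted p = 0.0503).

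A further list of 59 tested interferon-stimulated genes held 3 rises (5.08%, against 9.92% of all genes tested), 2 falls (3.39%, against 4.85%) and a median difference of 0.036. Phf11d rose by 0.59 (adjusted p = 0.00195 in limma), with 7.85 and 7.86 in DKO and 7.29 and 7.23 in WT, and Apol9a (0.44, adjusted p = 0.0412) and Tmem140 (0.31, adjusted p = 0.0387) rose too. The falls were the Schlafen genes Slfn2 (-0.47, adjusted p = 0.00587) and Slfn1 (-0.35, adjusted p = 0.0124 in limma), opposite to their relative Slfn5. Cxcl10, an interferon-induced chemokine, did not pass, at 13.17 and 13.22 in DKO and 13.19 and 13.35 in WT (difference -0.075, adjusted p = 0.696 in limma). Another list of 14 genes held Ifng, which encodes interferon gamma, and genes induced chiefly by interferon gamma. Of these 14 genes 6 rose (42.9%, against 9.92% of all genes tested) and 1 fell (7.14%, against 4.85%). Their median difference was 0.28. The fall was that of Nos2 (-0.74, adjusted p = 0.00918 in limma), at 11.33 and 11.94 in DKO and 12.48 and 12.26 in WT. The smallest p of the 14 were those of the immunity-related GTPases Irgm2 (0.79, adjusted p = 8.66e-05 in limma) and Iigp1 (0.65), and of Ido1 (0.56). Igtp (0.39), Cxcl9 (0.36) and Tgtp1 (0.32) also rose. Ifng itself was at 12.76 and 12.72 in DKO and 12.42 and 12.57 in WT (adjusted p = 0.11 in limma).

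Several lists of cell type markers moved with the groups beside these changes. The median differences were -1.39 for neutrophils, -0.39 for resident macrophages, 0.91 for fibroblasts and smooth muscle and 1.24 for endothelial cells. For the counts below, 9.92% of all genes tested rose and 4.85% fell. All 12 neutrophil markers fell, with mean rlog over the list of 10.07 and 9.92 in DKO and 11.31 and 11.43 in WT. Of 10 resident macrophage markers 7 fell, with list means of 9.58 and 9.77 in DKO and 10.06 and 9.99 in WT. All 10 fibroblast and smooth muscle markers rose (11.87 and 11.75 in DKO, 10.85 and 10.60 in WT), as did all 8 endothelial markers (8.59 and 8.67 in DKO, 7.55 and 7.36 in WT). Of 8 tested markers of plasmacytoid dendritic cells, specialised producers of type I interferon, Ly6d (-1.11), Siglech (-0.78) and Lair1 (-0.42) fell and Tcf4 (0.38) rose, while Cox6a2 and Smim5 were under the minimum for testing. Siglech had 6.44 and 5.76 in DKO and 6.92 and 6.84 in WT, and the list mean was 7.54 and 7.34 in DKO and 7.71 and 7.77 in WT. Of 10 monocyte markers 3 fell (30%) and 2 rose (20%), with a median of -0.37. The falls were Chil3 (-1.50), Ly6c2 (-0.85) and Itgam (-0.84), and the rises were Fn1 (0.73) and Vcan (0.69). In all, 8 of these 10 markers were lower in DKO, 7 of them at an unadjusted p under 0.05 in limma. Of 8 markers of conventional dendritic cells 1 rose (12.5%, near the share of all genes tested) and 0 fell (median 0.09, 0 lower at an unadjusted p under 0.05 in limma). Of 10 T cell markers (median -0.14) and of 8 epithelial markers (median -0.032) 0 passed in limma, with 4 T cell markers lower and 1 epithelial marker higher at an unadjusted p under 0.05. Of 3 tested markers of B and plasma cells 1 fell (median -0.31), with list means of 7.76 and 7.80 in DKO and 8.09 and 8.14 in WT. The part of these markers in the rises and falls of the interferon-stimulated genes was not tested.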

How the data were processed

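Per the labels' protocols, stranded mRNA libraries were made from lamina propria mononuclear cells. The deposited table holds log2 values that its name calls rlog, a regularized log transform. Per the submitters' processing notes, the tools of the authors included DESeq2, featureCounts from Subread 1.5.2, STAR 2.5.4a, BWA 0.7.14-r1136, cutadapt 1.9.1, bcl2fastq 2.17.1.14 and the genome build GRCm38. The sources used here do not state their parameters, the annotation or the strand setting. Depth per sample is unknown, and no count test was made. The table also holds 2 columns that match no labelled sample and were not used. Rlog pulls a gene towards its mean over the table, which understates folds of genes with few reads.

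Of 48526 gene identifiers, 48144 were matched to GENCODE M21 symbols, and the 13528 with a mean rlog of at least 4 were tested. Group was the single term of a linear model fitted with limma 3.58.1 in R 4.3.3 (trended empirical Bayes moderation, 8.9 prior and 2 residual degrees of freedom, two-sided, Benjamini-Hochberg adjustment over all 13528 genes). The fit was tested on simulated data. Python 3.11.15, pandas 2.3.3 and matplotlib 3.10.9 were used for tables and figures. Levels per length are mean rlog minus log2 of the exonic length in kilobases. Replicates are numbered by accession order, which pairs nothing. The series text calls them biological replicates without naming separate animals, so p-values measure only the spread between these samples. The members and gene lists were chosen with earlier results of these data known. Values in all samples are given for members past the threshold, for Stat2, Irf9, Irf7 and Isg15, for the member with the smallest p of each role, and, chosen after the values were seen, for the other IFIT members and those whose DKO replicates lay far apart. Alternatives were another or no filter, no variance trend, robust moderation, median centring, quantile normalization, sample weights, a threshold of 0.1 and leaving out each sample.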

Additional observations from a re-analysis of the deposited data

How the results depend on the processing

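The 11 other fits gave 384 values of single members. Of these values, 353 kept their side of the threshold, 23 lost the call and 8 gained it, and 0 called values changed sign. All 23 losses were in members called in the main fit. Most of the 353 were values of the 27 members that did not pass there, so they say little about how stable the calls were. With no filter on low values 0 members rose and 0 fell (7 and 3 at an unadjusted p under 0.05 in limma), Ifit3 had an adjusted p = 0.051, and 181 of all genes rose and 25 fell. In that fit 25186 genes entered. With a mean rlog of at least 6, 878 genes rose, and at a threshold of 0.1, 1028 fell. Without the variance trend and with quantile normalization 1 member fell, Oas3. Without a single sample 2 to 10 members rose, 0 to 4 fell (without WT replicate 1, 0 fell, and 2 at an unadjusted p under 0.05), the median of the members ran from 0.034 to 0.11, and over all genes 1008 to 1660 rose and 324 to 1222 fell. Ifit3 and Ifi44 were called in every fit but the unfiltered one. The causes were not tested. No paired analysis was possible because the labels give no shared replicate numbers. The depth of each sample is unknown, so its limits could not be given.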
